A study of Mus musculus with 6 samples.

Results

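The 10 genes described here encode the interleukin-1 agonists (Il1a, Il1b), their receptor antagonist (Il1rn) and 2 of their receptor chains (Il1rap, Il1r2), interleukin-6 and its specific receptor chain (Il6, Il6ra), and interleukin-10 with both of its receptor chains (Il10, Il10ra, Il10rb). They were chosen by gene symbol, 10 rows of the 36706 listed in each table, and each symbol was found once. RNA was sequenced from macrophages grown out of bone marrow of wild-type mice with 20 ng/mL M-CSF, the growth factor that drives and maintains the macrophage lineage. Of the 6 libraries, 3 came from macrophages treated for 3 h with interferon-gamma (IFN-γ), a cytokine made mainly by T cells and natural killer cells that activates macrophages, and 3 from macrophages left untreated. The series asks how IFN-γ turns on ACOD1. The strain, sex and age of the mice and the dose of IFN-γ are not stated in the labels used here. Since no label ties replicates to different animals or dishes, p-values cover just the spread among these 6 libraries, which may be technical.

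Interleukin-1α and interleukin-1β are pro-inflammatory cytokines that bind the same receptor, IL1R1. Interleukin-1β is made as a precursor that caspase-1 cleaves in inflammasomes. The bound receptor recruits the accessory protein IL1RAP and signals through MYD88 to NF-κB. The antagonist IL1RN occupies IL1R1 without recruiting IL1RAP, and IL1R2 is a decoy that binds ligand but lacks the signalling domain. Interleukin-6 binds IL6RA and then the shared signalling chain gp130, encoded by Il6st. Interleukin-10 restrains macrophage activation through a receptor made of IL10RA, which is specific to it, and IL10RB, which other cytokines of its family share. Both the interleukin-6 and the interleukin-10 receptor signal through STAT3.

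The tables held 32628170 to 34233607 counts per IFN-γ library and 28133342 to 31173432 per untreated library. A count of 3 in 1 library, taken as the floor, corresponded to between 0.089 and 0.101 CPM, the counts scaled to library size with TMM factors. Macrophage markers were abundant in every library, with a summed level of 20471 to 21625 CPM in IFN-γ libraries and 19632 to 21128 CPM in untreated libraries over 8 genes. The T cell marker Cd3e had 0 counts throughout, and 5 of 6 T and natural killer cell markers stayed at or below 3 counts in every library. The exception was Cd4, with 47 to 72 counts. The 8 neutrophil markers summed to 118 to 131 CPM with IFN-γ, against 69.8 to 92.7 CPM in untreated libraries. Most of that came from S100a8 and S100a9, while Ly6g had at most 2 counts in any library. The 6 dendritic cell markers summed to 5.44 to 6.06 CPM with IFN-γ, against 1.84 to 2.19 CPM untreated. Among them Xcr1 rose most, with a mean of 3.02 CPM with IFN-γ and 0.587 CPM untreated. Cd209a, with at most 4 counts in any library, did not rise. What part these markers' cells had in the results below was not tested. In bulk RNA, more cells of a type and more RNA per cell cannot be told apart. Relative to the mean of the untreated group, levels in untreated replicate 2 changed by -0.093 on the log2 scale for each doubling of exon length. This trend was 0.067 in untreated replicate 1 and 0.026 in replicate 3. All 3 are deviations from 1 mean, so they are not independent. Over all genes, untreated replicate 1 lay farthest from the others. Its chi-square over degrees of freedom was 81.0 against replicate 2 and 53.2 against replicate 3, with 27.4 between replicates 2 and 3. Values that change by over 1.5 times, or gain or lose their call, without untreated replicate 2 are also given without it.

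IFN-γ raised both IL-1 agonist genes, the IL-1 receptor antagonist gene, Il6 and Il10ra, and lowered Il10rb slightly. Il1rap, Il1r2, Il6ra and Il10 did not pass the test. Of the 10 genes, 5 were higher and 1 was lower with IFN-γ (quasi-likelihood test of edgeR, threshold 0.05 on p-values adjusted by Benjamini-Hochberg over 12968 genes), where 19.6% of all genes tested were higher and 16.8% were lower. All 5 that rose had an estimated rise of at least 2-fold, as did 6.17% of all genes tested. The 95% intervals of Il1a (1.71 to 2.72) and Il6 (1.66 to 4.44) reached below 2-fold. The IFN-γ libraries lay entirely above the untreated ones for 6 of the 10 genes, those 5 and Il10, and entirely below for Il10rb, where 25.9% of all genes tested lay above and 24.2% below. The median log2 fold change was 0.75 over the 10 genes and -0.01 over all genes tested. All 10 passed the filter on low counts, but Il6 reached the filter's level of 0.313 CPM in only 1 of 3 untreated libraries and in all 3 IFN-γ libraries. It therefore entered the test through the group in which it was higher.

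**Figure D1:**
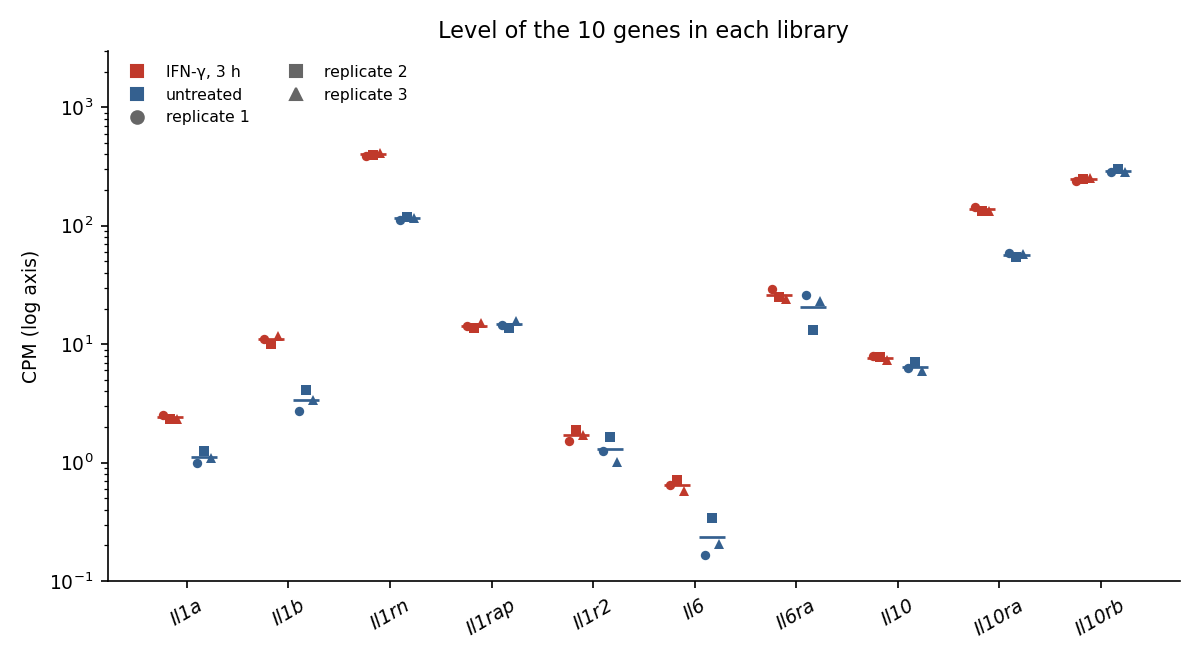
Level of each of the 10 genes in CPM (log axis) in the 3 IFN-γ libraries (red) and the 3 untreated libraries (blue), with marker shapes for replicates and lines for group means. The antagonist gene Il1rn averaged 401 CPM with IFN-γ and 115 CPM untreated, while Il6 averaged 0.648 and 0.237 CPM, and untreated replicate 2 lies below the other libraries for Il6ra.

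Levels were compared between genes in TPM, the deposited measure per exon length. With IFN-γ the order was Il1rn (286 ± 4.86 TPM, SD, n = 3), Il10rb, Il10ra, Il6ra, Il1b, Il10, Il1a, Il1rap, Il1r2 and Il6. In untreated macrophages it was Il10rb (266 ± 9.17 TPM, SD, n = 3), Il1rn, Il10ra, Il6ra, Il10, Il1b, Il1rap, Il1a, Il1r2 and Il6. Neighbours in these orders had ranges that did not overlap, except Il1r2 and Il6 with IFN-γ and Il1a and Il1r2 in untreated macrophages. The antagonist gene thus stood above Il10rb with IFN-γ and below it without, and Il1b stood above Il10 with IFN-γ and below it without. The exon length listed for Il1rap, 13345 bases, is the longest of the 10, so its TPM is low for its count.

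Il1b, the gene of the inducible agonist interleukin-1β, had 361, 309 and 365 counts in IFN-γ replicates 1, 2 and 3, and 82, 122 and 114 counts in untreated replicates 1, 2 and 3. Every IFN-γ library was above every untreated one. The means were 11.0 ± 0.857 CPM with IFN-γ and 3.41 ± 0.702 CPM untreated (SD, n = 3 each), a log2 fold change of 1.69 ± 0.14 (SE), or 3.22-fold (adjusted p = 4.08e-05, edgeR). Il1a, which encodes interleukin-1α, active also as a precursor, had 82, 72 and 73 counts with IFN-γ and 30, 37 and 37 counts untreated. Its groups did not overlap either, and its log2 fold change was 1.11 ± 0.14, or 2.16-fold (adjusted p = 0.000544, edgeR). The tables place both genes on the minus strand of chromosome 2, Il1a at 129141530 to 129151892 and Il1b at 129206490 to 129213059, with 54.6 kb between them. The tables name no genome build. Il1a stayed the less abundant of the pair: its TPM was 0.217, 0.223 and 0.191 times that of Il1b in IFN-γ replicates 1, 2 and 3, against 0.35, 0.29 and 0.31 times in untreated replicates 1, 2 and 3. The share was lower in all 3 IFN-γ libraries, with a log2 difference of -0.59 and an SD of 0.13 between libraries. An exact two-sided permutation test of that ratio gave p = 0.1, the smallest that 3 libraries against 3 allow, and 0.175 after adjustment over the 7 ratios compared. Exons of the predicted gene Gm14023 on the other strand cover 11.2% of the Il1a exon bases, with a mean of 8 counts against 55.2 for Il1a. The library kit keeps strand, but no source used here says whether the counting used it, so reads from this overlap cannot be told apart.

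The stretches of 250 bases before the RefSeq transcript starts of the agonist genes, the antagonist gene and Il6 are shown because these 4 ligand genes rose together. They are taken from RefSeq on build GRCm38.p6, 5′ to 3′ on the strand of the gene, with capitals for matches to any of 6 short motifs searched on both strands. For Il1b the stretch is chr2:129371140-129371389 (minus strand), for Il1a chr2:129309973-129310222 (minus), for the upstream start of Il1rn chr2:24336610-24336859 (plus) and for Il6 chr5:30012864-30013113 (plus).
Il1b: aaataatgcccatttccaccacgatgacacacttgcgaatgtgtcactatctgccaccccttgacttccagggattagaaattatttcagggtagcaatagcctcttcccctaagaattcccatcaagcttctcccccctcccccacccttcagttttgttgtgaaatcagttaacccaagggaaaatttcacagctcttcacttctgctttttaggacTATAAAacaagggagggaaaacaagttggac
Il1a: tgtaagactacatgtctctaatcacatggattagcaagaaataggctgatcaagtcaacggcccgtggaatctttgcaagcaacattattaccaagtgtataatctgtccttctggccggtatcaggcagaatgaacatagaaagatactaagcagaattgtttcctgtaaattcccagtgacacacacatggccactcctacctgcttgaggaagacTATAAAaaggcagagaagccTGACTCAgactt
Il1rn: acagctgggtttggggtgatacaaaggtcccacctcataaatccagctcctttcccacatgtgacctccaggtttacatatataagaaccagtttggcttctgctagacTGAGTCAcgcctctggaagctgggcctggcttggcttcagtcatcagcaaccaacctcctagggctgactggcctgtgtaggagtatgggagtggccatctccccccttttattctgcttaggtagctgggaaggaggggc
Il6: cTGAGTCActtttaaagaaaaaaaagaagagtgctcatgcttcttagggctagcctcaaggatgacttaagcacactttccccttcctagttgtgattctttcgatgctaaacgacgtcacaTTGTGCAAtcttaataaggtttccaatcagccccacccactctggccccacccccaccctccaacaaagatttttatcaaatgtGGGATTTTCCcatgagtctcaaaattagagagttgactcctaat
The motifs were the STAT-binding GAS element TTCNNNGAA, the interferon-stimulated response element, an NF-κB-type site, the AP-1 site TGANTCA, a C/EBP-type site TTGCNNAA and the TATA box TATAAA. They occur in 7.02%, 2.98%, 4.11%, 6.75%, 9.56% and 12.4% of the 32851 mouse windows of the same length. Il1b held a TATA box at positions -31 to -26 relative to its start, and Il1a held one at -32 to -27 and an AP-1 site at -12 to -6. The upstream Il1rn start had an AP-1 site at -141 to -135. Il6 held an AP-1 site at -249 to -243, a C/EBP-type site at -128 to -121 on the minus strand and an NF-κB-type site, GGGATTTTCC, at -44 to -35. None of the 4 stretches held a letter match to the GAS or the interferon-stimulated response element, which says nothing of sites elsewhere. Windows were matched for 7 of the 10 genes. None was at hand for Il10, Il10ra and Il10rb, so Il10ra, which rose, was not searched. Of the 7 searched, Il1r2 alone held a GAS match, TTCAAGGAA at -111 to -103, and Il6ra and Il1rap held no match to any of the 6 motifs. A match of letters is not a measured binding site.

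Il1rn, which encodes the IL-1 receptor antagonist, was the most abundant of the IL-1 genes. Its log2 fold change exceeded that of Il1b by less than the standard error of Il1b, and without untreated replicate 2 it was the lower of the pair, at 1.82 against 1.84. It had 12671, 12250 and 12824 counts in the IFN-γ libraries and 3374, 3495 and 3893 counts in the untreated libraries, so each IFN-γ library held more than any untreated library. The means were 401 ± 11.5 CPM with IFN-γ and 115 ± 3.05 CPM untreated (SD, n = 3 each), a log2 fold change of 1.80 ± 0.06, or 3.48-fold (adjusted p = 1.05e-07, edgeR). It lies on the plus strand of chromosome 2, at 24226872 to 24241503 in the tables. RefSeq gives 3 transcript starts for it, and the most downstream one has an NF-κB-type match, GGGTTTTTCC, at -51 to -42. The counts are per gene and do not separate the secreted from the intracellular forms of the antagonist. In TPM the antagonist exceeded the summed agonists 19.4, 21.8 and 19.9 times in the IFN-γ libraries and 20.5, 14.9 and 17.5 times in the untreated libraries. These values overlap between groups, with a log2 difference of 0.21 against an SD of 0.17 (exact permutation p = 0.3, two-sided, n = 3 each, adjusted p = 0.35). The log2 difference was 0.10 without untreated replicate 2 and 0.33 without untreated replicate 1, where the groups did not overlap.

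The IL-1 receptor chains showed no called change. Il1rap, the gene of the accessory protein needed for signalling, had 465, 421 and 468 counts with IFN-γ and 441, 401 and 532 counts untreated. Its groups overlapped, and the 95% interval of the fold ran from 0.859 to 1.12 (log2 fold change -0.03, adjusted p = 0.809, edgeR). That value was -0.08 without untreated replicate 2 and 0.02 without untreated replicate 3. Il1r2, the gene of the decoy receptor, had 49, 58 and 53 counts with IFN-γ and 38, 49 and 34 counts untreated. Untreated replicate 2 equalled IFN-γ replicate 1 in counts, and the fold was 1.31 with an interval from 0.938 to 1.82 (adjusted p = 0.191, edgeR). Without untreated replicate 2 the log2 fold change of Il1r2 was 0.59, with an adjusted p of 0.0381, instead of 0.38, and without untreated replicate 3 it was 0.21 (adjusted p = 0.497). The signalling receptor gene Il1r1 was also low, with 32, 27 and 28 counts with IFN-γ and 41, 30 and 37 counts untreated. It was not called (log2 fold change -0.33 ± 0.19, adjusted p = 0.224, edgeR). Without untreated replicate 1 the log2 fold change of Il1r1 was -0.20 (adjusted p = 0.535, edgeR). Per exon length, Il1r2 exceeded Il1r1 3.50, 4.91 and 4.32 times in the IFN-γ libraries and 2.12, 3.73 and 2.10 times in the untreated libraries. The groups overlapped through untreated replicate 2 (log2 difference 0.72 against an SD of 0.38, exact permutation p = 0.2, adjusted p = 0.28), and without it they did not overlap and the difference was 1.00. Il1rap relative to the sum of Il1r1 and Il1r2 averaged 1.38 ± 0.146 with IFN-γ and 1.67 ± 0.424 untreated (SD, n = 3 each), which overlapped too (log2 difference -0.25, exact permutation p = 0.4, adjusted p = 0.4). That difference was -0.42 without untreated replicate 2, where the groups did not overlap, and -0.06 without untreated replicate 3. The tables place Il1r2 on chromosome 1 at 40123872 to 40164390 and Il1rap on chromosome 16 at 26400259 to 26548878, both on the plus strand.

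**Figure D2:**
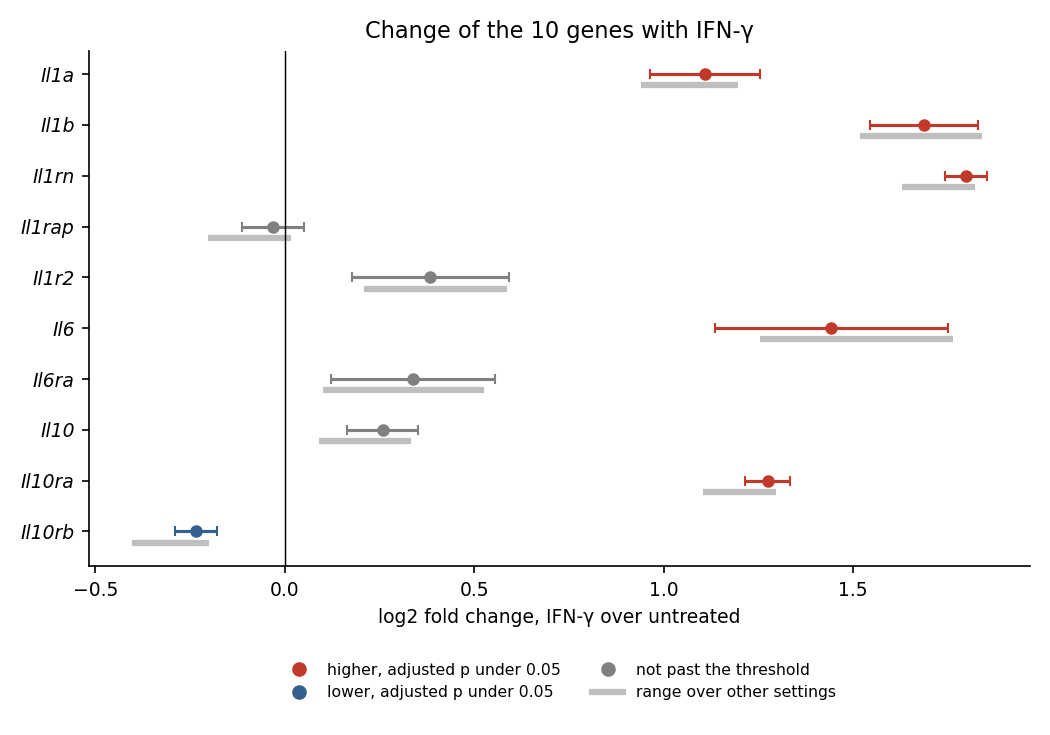
Log2 fold change of each gene, IFN-γ over untreated, with its standard error (points and bars) and, in grey, the range of the same value over the other scalings, filters, tests and left-out libraries. Il1a, Il1b, Il1rn, Il6 and Il10ra lie to the right of 0 over their whole range and Il10rb to the left. Il1r2, Il6ra and Il10, which were not called, also lie to the right over their whole range, and only Il1rap crosses 0.

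Il6, the gene of the acute-phase cytokine interleukin-6, was the lowest of the 10. It had 21, 22 and 18 counts in the IFN-γ libraries and 5, 10 and 7 counts in the untreated libraries, above the floor of 3 counts in each. The groups did not overlap, at 0.648 ± 0.0683 CPM with IFN-γ and 0.237 ± 0.0899 CPM untreated (SD, n = 3 each). On the log2 scale Il6 rose by 1.44 ± 0.31, or 2.72-fold with a 95% interval from 1.66 to 4.44 (adjusted p = 0.00718, edgeR). This test has a limit: Il6 reached the filter's level in 1 of 3 untreated libraries and entered through the IFN-γ group. The interval is the widest of the genes that rose. The gene lies on the plus strand of chromosome 5, at 30218112 to 30224973 in the tables.

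Il6ra, which encodes the interleukin-6 binding chain, had 953, 765 and 753 counts with IFN-γ and 776, 390 and 778 counts untreated. Untreated replicate 2 stood far below the other 5 libraries, and the other untreated libraries fell within the range of the IFN-γ libraries on the CPM scale or just below it. The log2 fold change was 0.34 ± 0.22 with an interval of the fold from 0.895 to 1.79 (adjusted p = 0.267, edgeR), and it was 0.10 without untreated replicate 2 (adjusted p = 0.407) and 0.52 without untreated replicate 1. Il6st, the gene of the shared chain gp130, was low in the same library, with 1334 counts in untreated replicate 2 against 2256 and 2278 in the other untreated libraries and 2523, 1941 and 1907 with IFN-γ. Its log2 fold change was 0.11 ± 0.18 (adjusted p = 0.682) and had the opposite sign, -0.08, without untreated replicate 2. It was also below 0 without IFN-γ replicate 1 and with upper quartile or total count scaling. Per exon length, Il6ra was 0.64, 0.667 and 0.669 times Il6st in the IFN-γ libraries and 0.583, 0.495 and 0.578 times Il6st in the untreated libraries. That ratio was higher in all 3 IFN-γ libraries, by 0.26 on the log2 scale against an SD of 0.10 (exact permutation p = 0.1, adjusted p = 0.175). Il6ra lies on the minus strand of chromosome 3, at 89776631 to 89820503 in the tables.

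Il10ra, the gene of the chain specific to interleukin-10, rose, whereas Il10rb, the gene of the shared chain, fell by a smaller amount. Il10ra had 4664, 4111 and 4173 counts with IFN-γ and 1758, 1598 and 1949 counts untreated, with no overlap. It averaged 137 ± 5.51 CPM with IFN-γ and 56.8 ± 2.36 CPM untreated (SD, n = 3 each), a log2 fold change of 1.27 ± 0.06, or 2.42-fold (adjusted p = 1.2e-06, edgeR). Il10rb had 7795, 7583 and 7839 counts with IFN-γ and 8530, 8975 and 9529 counts untreated, again with no overlap. It averaged 247 ± 6.21 CPM with IFN-γ and 289.9 ± 11.9 CPM untreated (SD, n = 3 each), a log2 fold change of -0.23 ± 0.06, or 0.85 times the untreated level (adjusted p = 0.0123, edgeR). The fall of Il10rb was not called without IFN-γ replicate 2 (adjusted p = 0.0633). In GENCODE M21 transcripts, 13.9% of the 50-base stretches of Il10rb occur in another gene, mostly Gm21970, so its count is less certain as that of a single gene.

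Per exon length Il10rb remained the more abundant chain, and the balance between the chains shifted. Il10ra was 0.405, 0.367 and 0.36 times Il10rb in the IFN-γ libraries and 0.139, 0.12 and 0.138 times Il10rb in the untreated libraries. The ratio was 2.84-fold higher with IFN-γ, a log2 difference of 1.51 against an SD of 0.11 between libraries, and the groups did not overlap (exact permutation p = 0.1, adjusted p = 0.175). A ratio within a library does not depend on how libraries are scaled. The tables place Il10ra on the minus strand of chromosome 9, at 45165135 to 45180447, and Il10rb on the plus strand of chromosome 16, at 91202851 to 91222722.

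Il10, the gene of the anti-inflammatory cytokine itself, had 256, 241 and 229 counts with IFN-γ and 190, 210 and 200 counts untreated. Every IFN-γ library was above every untreated library, at 7.70 ± 0.283 CPM with IFN-γ and 6.45 ± 0.599 CPM untreated (SD, n = 3 each), but the difference missed the threshold (log2 fold change 0.26 ± 0.09, adjusted p = 0.0619, edgeR). The fold was 1.20 with an unadjusted 95% interval from 1.03 to 1.39. Nor was Il10 called without untreated replicate 1 (log2 fold change 0.24, adjusted p = 0.145, edgeR) or replicate 3 (0.19, adjusted p = 0.222). Il10 was called higher without untreated replicate 2 (log2 fold change 0.33, adjusted p = 0.011) and, in a correction chosen after seeing the data, with the trend of each library on exon length removed (0.29, adjusted p = 0.0157). With total counts in place of TMM scaling its log2 fold change was 0.09 (adjusted p = 0.426), where the median over all genes tested was -0.184. Relative to Il6 in TPM, Il10 was 6.64, 5.97 and 6.93 times as high in the IFN-γ libraries and 20.7, 11.4 and 15.6 times as high in the untreated libraries. The groups did not overlap, with a log2 difference of -1.25 against an SD of 0.31 (exact permutation p = 0.1, adjusted p = 0.175). Il10 lies on the plus strand of chromosome 1, at 130947459 to 130952707 in the tables.

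**Figure D3:**
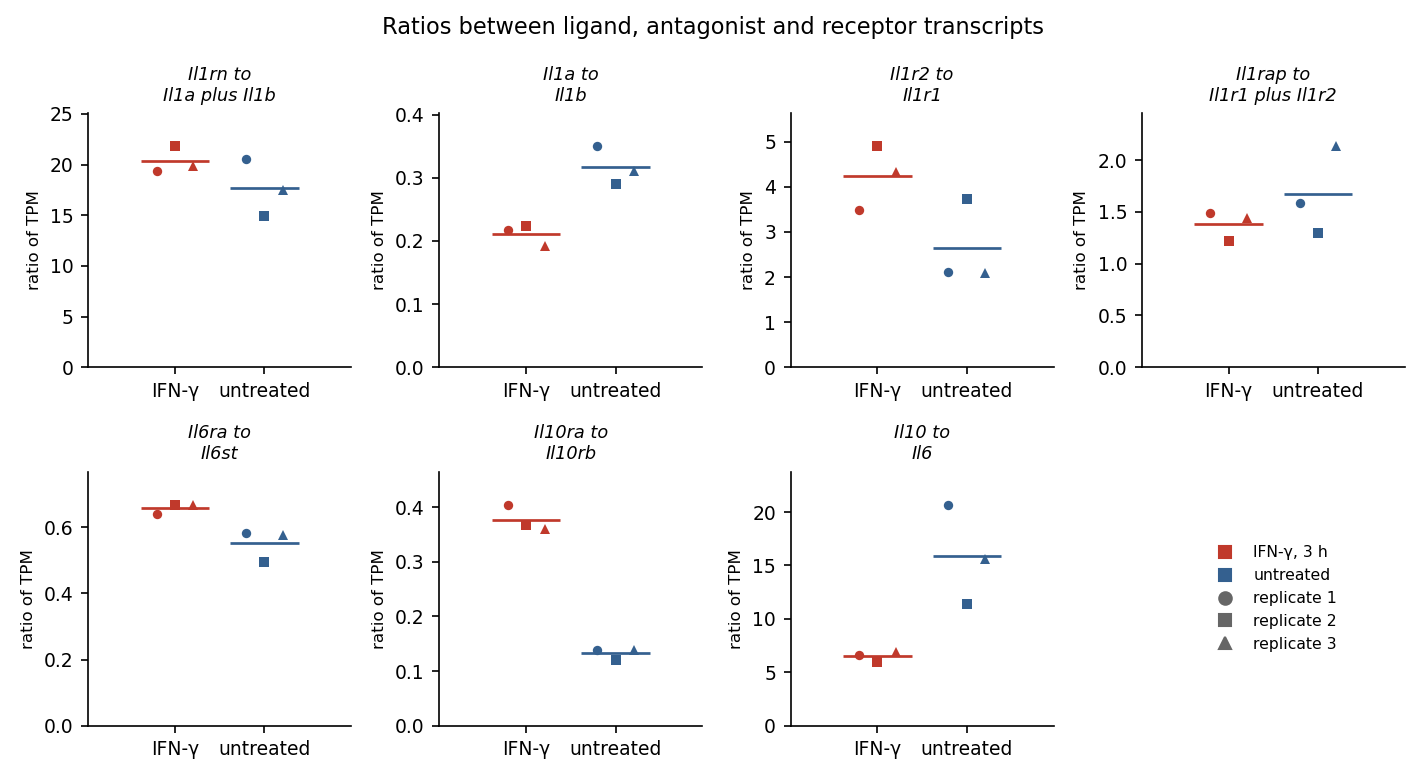
Ratios of TPM between the named genes in each library, IFN-γ (red, left) and untreated (blue, right), with lines for group means and every axis starting at 0. The ratio of Il10ra to Il10rb averaged 0.377 with IFN-γ and 0.133 untreated, while the ratio of Il1rn to the summed agonists overlapped between the groups.

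Genes around these cytokines were read from the same fit. Of 28 genes of the wider IL-1 family and its signalling, 22 were tested. Of these, 15 were higher and 1 lower with IFN-γ, with a median log2 fold change of 0.72, against 19.6% higher, 16.8% lower and a median of -0.01 over all genes tested. The largest rises were in Casp4, the gene of the non-canonical inflammasome caspase (log2 fold change 2.82 ± 0.09), Il18rap, the accessory chain of the IL-18 receptor (2.75 ± 0.09), Nlrp3, an inflammasome sensor (1.99 ± 0.10), Il18bp, which neutralises IL-18 (1.65 ± 0.07), and Casp1, the protease that matures interleukin-1β (1.60 ± 0.07). The 1 gene called lower was Il1rl2, the receptor of the IL-36 cytokines. It averaged 3.88 ± 0.337 CPM with IFN-γ and 6.83 ± 0.921 CPM untreated (SD, n = 3 each), a log2 fold change of -0.82 ± 0.12 (adjusted p = 0.00132, edgeR). A fall of Il1rl1, in the same list, was not called (log2 fold change -0.76 ± 0.29, adjusted p = 0.0765, edgeR). Without untreated replicate 2 it was called, at -0.99 (adjusted p = 0.00676, edgeR), and without untreated replicate 1 it was at -0.57 (adjusted p = 0.192, edgeR). It was also called lower with upper quartile or total count scaling, the replicate block and each library's trend on exon length removed.

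Of 17 tested genes of the IL-6 family and its signalling, 10 were higher and none lower, with a median of 0.41. Over all genes tested, 19.6% were higher and 16.8% lower, with a median of -0.01. Large rises were in Il27, Socs3, Stat3 and Jak2, with log2 fold changes from 4.81 for Il27, a cytokine subunit gene of the same family, to 1.79 for the kinase gene Jak2. Stat3, the factor downstream of both the IL-6 and the IL-10 receptor, averaged 228 ± 19.7 CPM with IFN-γ and 56.4 ± 3.79 CPM untreated (SD, n = 3 each), a log2 fold change of 2.02 ± 0.08 (adjusted p = 5.6e-07, edgeR). Socs3, which blocks signalling from gp130, averaged 144 ± 3.12 CPM with IFN-γ and 6.16 ± 0.419 CPM untreated. Of 12 tested genes of the IL-10 family and its signalling, 10 were higher and 1 lower, with a median of 0.67. Socs3, Stat3, Jak1 and Tyk2 stand in both lists. All 10 that rose in the IL-10 list were signalling or response genes. The only cytokine or receptor gene of that list tested, the receptor chain gene Il20rb, was not called (log2 fold change 0.11, adjusted p = 0.643, edgeR). After Socs3 and Stat3 the largest rises there were in Bcl3, an IκB family gene (1.45 ± 0.07), Zfp36, whose protein destabilises cytokine mRNAs (1.25 ± 0.06), and Etv3, an ETS-domain repressor gene (0.96 ± 0.10). The fall was in Maf, a transcription factor gene known to drive Il10 (-0.23 ± 0.06, adjusted p = 0.0144), which was not called without IFN-γ replicate 2 (adjusted p = 0.0888). Il20, Il22 and Il24, cytokine genes of the IL-10 family, had 0 counts in all 6 libraries.

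**Figure D4:**
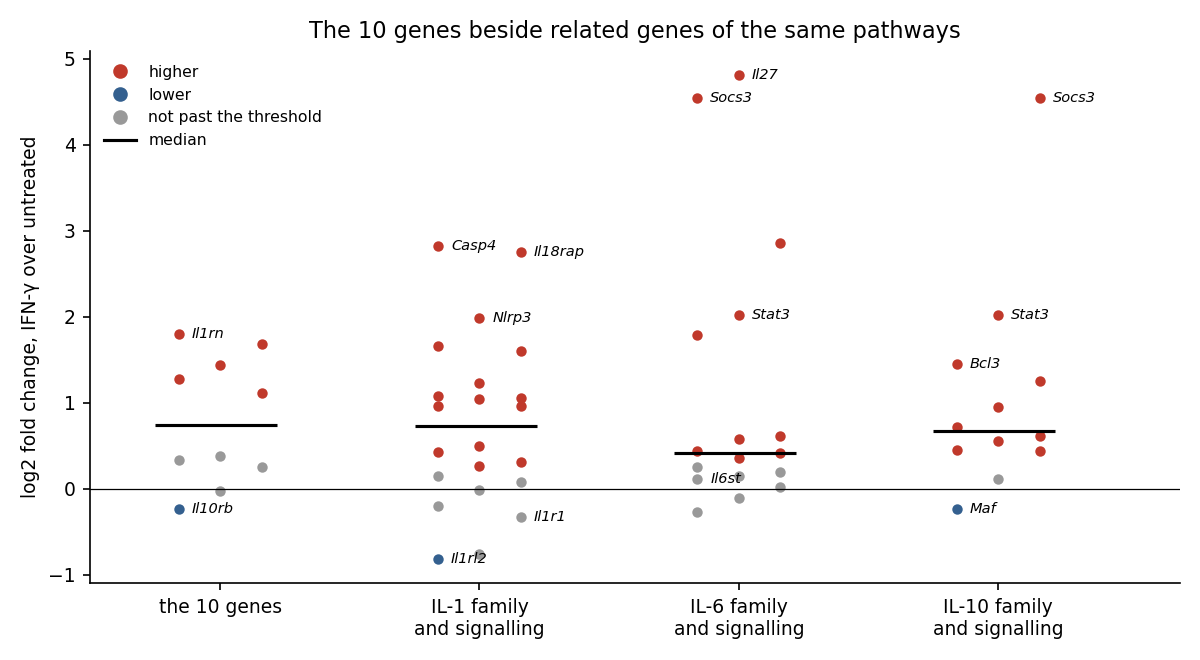
Log2 fold change, IFN-γ over untreated, of the 10 genes and of the tested genes of the wider IL-1, IL-6 and IL-10 lists, each point a gene and each line a median. The medians are 0.75 for the 10 genes, 0.72 for IL-1, 0.41 for IL-6 and 0.67 for IL-10, and genes in both the IL-6 and IL-10 lists are drawn in each.

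Across the 6 libraries, the genes of at least 5 CPM whose log2 CPM was most alike that of Il1rn were Mir155hg, Gbp3 and Ehd1, each with a Pearson correlation of 1.00 to 2 decimals. For Il10rb, the only gene of the 10 that fell, they were 1600010M07Rik, Tial1 and Tk2, each with a correlation of 1.00. The 6 points form 2 groups of 3 that share their treatment, so this measure of likeness reflects mainly the difference between the groups. Of 9604 genes compared, 568 had a correlation over 0.99 with Il1rn and 59 with Il10rb.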

How the data were processed

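Gene expression was measured by RNA sequencing with a stranded mRNA kit, per the labels' protocols. Reads were aligned with HISAT2 and the build was mm10, per the submitters' processing notes; no source used here gives versions, the counting tool or its use of strand. The coordinates in the tables match 1.7% of 35270 symbols of the RefSeq table of GRCm38.p6, so they are printed with no build named.

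Per the file headers, each table holds a count, a TPM and an FPKM per gene. The deposited counts are raw whole numbers and were the values tested. The TPM deposited by the authors equal count over length scaled to one fixed total per library, and serve for levels and ratios between genes. The FPKM deposited by the authors were not tested.

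Counts were analysed with edgeR 4.0.16 in R 4.3.3: filterByExpr (minimum count 10, minimum total 15), TMM scaling, glmQLFit and glmQLFTest with group alone, two-sided, Benjamini-Hochberg adjustment over 12968 genes, threshold 0.05. After ± stands an SD between libraries or, for a log2 fold change, its standard error, the change over the square root of F. Intervals of 95% come from the same fit, unadjusted. Floors of 3 counts cover counting error only. Ratios were compared by exact two-sided permutation with scipy 1.17.1. The test was tried on simulated counts. Every pair of replicates differed beyond counting noise (chi-square over degrees of freedom from 2.04 to 81.0). Alternatives were 3 other scalings, 2 other filters, DESeq2 1.42.0, limma-voom 3.58.1, a robust fit, a replicate block, a stricter threshold (0.01), a test against 2-fold, each library left out and, chosen after seeing the data, a correction of every library for exon length (lowess, span 0.5). The 10 genes and the lists of related genes were chosen with earlier results of these data known. Genes named from the lists are the 5 largest called changes per list and direction, with Il1r1, Il6st, Stat3 and Socs3, and other genes of a count were named after their values were seen. The result of 1 gene that this rule names is not reported here.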

Additional observations from a re-analysis of the deposited data

How the results depend on the processing

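The count of called genes among the 10 was 6 with every other scaling, with no filter, DESeq2, limma-voom, the robust fit and the replicate block. It was 4 with the filter of 5 CPM, under which Il1a, Il1r2 and Il6 were not tested, and 5 at a threshold of 0.01. It was 7 with each library's trend on exon length removed, which adds Il10. With 1 library left out it was between 5 and 8, the 8 being without untreated replicate 2, which adds Il10 and Il1r2. Calls over all genes rose too, from 4715 to 5968 with that trend removed and to 5967 without untreated replicate 2. Over all genes they ran from 3442 to 5967 with 1 library left out. Of the related genes, 32 were higher and 3 lower without untreated replicate 2. In the test against 2-fold, 3 of the 10 passed, all higher, with 561 of all genes and 13 of the related genes. The 3 were Il1b, Il1rn and Il10ra, so Il1a and Il6 did not pass it. At a threshold of 0.01, 3037 of all genes were called. Upper quartile scaling and total counts moved the median log2 fold change of all genes to -0.161 and -0.184, and the calls over all genes to 1803 higher with 4097 lower and 1666 higher with 4520 lower, against 2539 and 2176 with TMM; the 10 genes kept 5 higher and 1 lower under both, and the related genes 26 higher with 3 lower and 24 with 4, against 31 with 2. Il1rap, not called in any setting, was at 0.0035 without IFN-γ replicate 2 and at 0.015 without untreated replicate 3, and between -0.084 and 0.015 with 1 library left out. Deviations from the group mean correlated at 0.31, 0.14 and -0.07 between libraries of the same number, for replicates 1, 2 and 3. Between libraries of different numbers the correlations ran from -0.34 to 0.24. These values overlap and do not settle whether the numbers mark pairs. The numbers were not taken as pairs in the main fit. With the replicate block, 5050 of all genes, 6 of the 10 and 35 of the related genes were called, against 4715, 6 and 33 without it. Il6ra had an adjusted p of 0.0546 with the block (edgeR), against 0.267 without it. Counts of 5 to 22 for Il6 limit its precision. All 49 recomputed values of the ratios (from counts, or with 1 library left out) lay within 1 SD of the value given. Leaving out 1 of 3 libraries cannot move a value by 1 SD, so those values are no check. The log2 difference of a ratio of 1 gene to 1 gene is the same from counts as from TPM. For the summed genes, the log2 difference from counts was 0.22 for the Il1rn ratio and -0.12 for the Il1rap ratio. From TPM these were 0.21 and -0.25.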
